A study of Oryza sativa Japonica Group with 9 samples.

Results

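The genes described here are 10 rice loci that serve protein folding and stress sensing in the endoplasmic reticulum (ER), among the 55986 gene models of the deposited table. They were taken by locus: BiP1 (LOC_Os02g02410), BiP4 (LOC_Os05g35400), BiP5 (LOC_Os08g09770), PDIL1-1 (LOC_Os11g09280), PDIL2-3 (LOC_Os09g27830), ERO1 (LOC_Os03g52340), calnexin (LOC_Os04g32950), calreticulin (LOC_Os07g14270), bZIP50 (LOC_Os06g41770) and IRE1 (LOC_Os07g28820). All 10 were in the table, and 8 of them reached the level needed for testing; BiP4 and BiP5 did not. RNA was sequenced from developing grains (caryopses) of Nipponbare, a japonica rice, in 9 libraries: 3 labelled GSK5-/- (edited in a GSK3-like kinase gene), 3 labelled ARF4-/- (edited in an auxin response factor gene) and 3 wild type (WT). The labels place sampling at day 9 post flowering, the series text at 7 to 8 days. They describe neither the edited sequences nor the number of lines or of plants pooled. Nothing states that each library is a plant of its own, and a p-value here reflects differences among libraries that could be technical.

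Secretory and storage proteins fold in the ER. BiP, the lumenal HSP70 chaperone, holds unfolded chains. Calnexin and calreticulin hold glycoproteins by their sugars. Disulfide isomerases of the PDI family set disulfide bonds with oxidizing power from ERO1. When unfolded protein builds up, the membrane kinase and ribonuclease IRE1 splices the bZIP50 transcript into a form that encodes an active transcription factor, and ER chaperone genes are among its known targets. Rice endosperm makes large amounts of storage protein in the ER, and BiP1 and PDIL1-1 are known for their part in that tissue. Among the BiP genes, BiP4 and BiP5 are known as copies that respond to ER stress.

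The values are FPKM, fragments scaled to gene model length and library size, so levels can be compared between genes. Summed FPKM was 585414 to 626390 per library, and relative depth, read from the steps of low values, spanned 70.7% to 100% of the deepest library; absolute depth is unknown. WT replicate 3 had a mean Pearson r across genes of 0.941 with the GSK5 libraries and 0.91 with its own group, and ARF4 replicate 3 had 0.93 with GSK5 and 0.901 with its own group. The lowest mean r with the own group was that of ARF4 replicate 2, 0.898, and WT replicate 1 had 0.913. WT replicate 1 had the fewest genes at 1 FPKM, 20840, against 21532 to 23172 in the other libraries. The locus taken as GSK5 (LOC_Os03g62500) stood at 31.1, 33.99 and 31.55 FPKM in GSK5 libraries and 32.07, 39.33 and 47.96 in WT (limma adjusted p = 0.395). The locus taken as ARF4 (LOC_Os01g70270) stood at 54.21, 49.52 and 47.61 FPKM in ARF4 libraries and 91.82, 92.48 and 67.58 in WT (limma adjusted p = 0.0388). Of 16 loci entered as endosperm storage proteins, 12 stayed under 1 FPKM in every library and 9 were listed at 0 in all WT libraries. Their summed level was 35.5 to 37.6 FPKM in GSK5, 43.8 to 49.3 in ARF4 and 26.6 to 38.9 in WT. The part of sampling stage, on which labels and series text differ, in these low values was not tested. Of 6 loci entered for endosperm starch synthesis, 5 were tested, and the 6 summed to 175.9 to 190.2 FPKM in GSK5, 99.6 to 119.1 in ARF4 and 104.4 to 194.8 in WT. The identities of these marker loci were not checked, since the table and the RefSeq gene table used here share no identifier.

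The most abundant of the 10 genes was PDIL1-1, the disulfide isomerase, with a mean of 292 FPKM over the 9 libraries and rank 152 in the table. Calreticulin averaged 127 FPKM, calnexin 103 and BiP1 65.8. The sensor IRE1, its target bZIP50 and the oxidase were lower: bZIP50 averaged 23.25 FPKM, IRE1 21 and ERO1 16.4. PDIL2-3, the second PDI-family member, averaged 11.4 FPKM. These averages cover groups that differ in spread, and bZIP50 and IRE1 overlapped in level in each group, so their order is not resolved. The stress-responsive BiP copies were near the lower limit of the table in every library. BiP4 stood at 0.46, 0.51 and 0.12 FPKM in GSK5, 0.16, 0.1 and 0.59 in ARF4 and 0.03, 0.33 and 0.12 in WT. BiP5 never exceeded 0.04 FPKM, and was listed at 0 in GSK5 replicate 3, ARF4 replicate 1 and WT replicates 1 and 3. The lowest BiP1 value, 26.74 FPKM in WT replicate 1, was thus above the highest BiP4 value, 0.59 FPKM in ARF4 replicate 3. The BiP genes are close copies, and how reads shared between them were assigned is not stated, so the low values of BiP4 and BiP5 are uncertain. All these are bulk libraries, in which fewer cells of a type and less RNA per cell cannot be told apart.

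**Figure D1:**
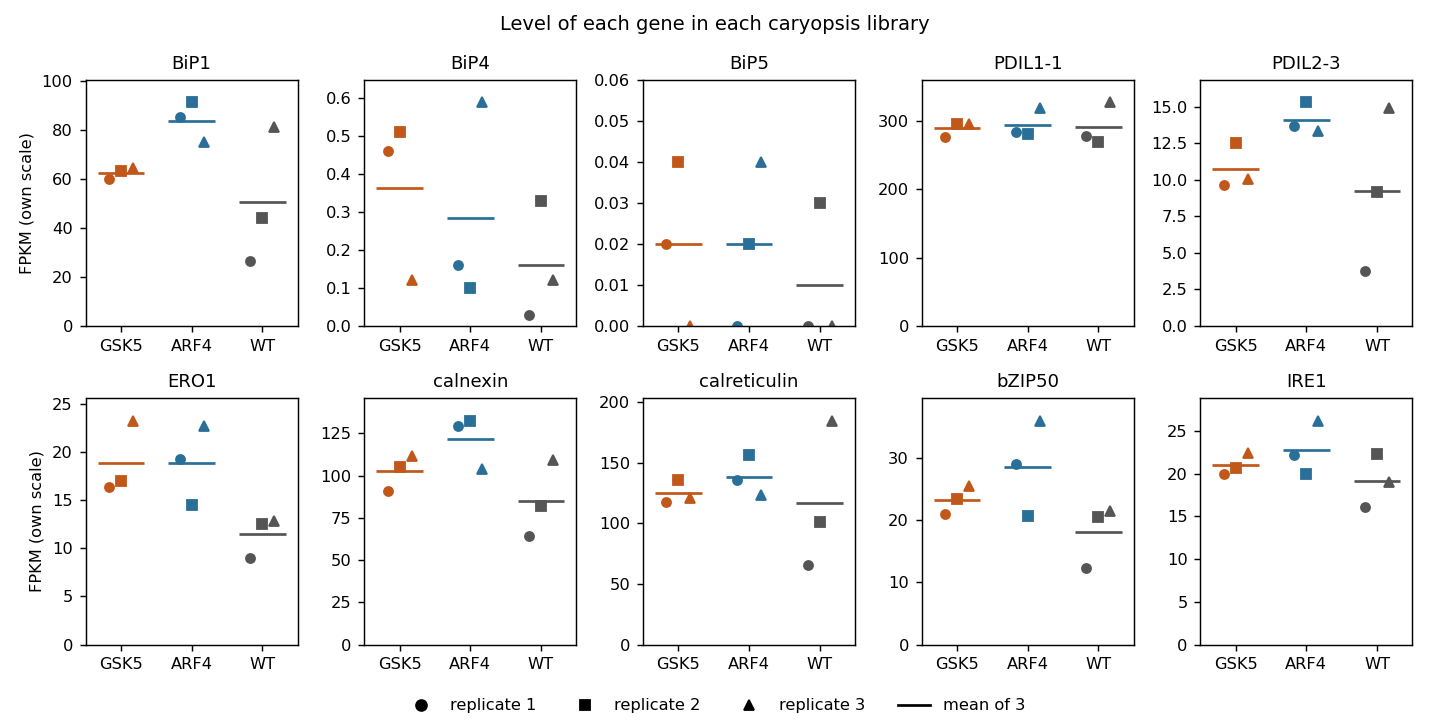
FPKM of each of the 10 genes (vertical axis from 0, own scale per panel) in the GSK5, ARF4 and WT libraries; symbols mark replicates and bars the mean of 3. WT replicate 1 was the lowest of the 9 libraries for BiP1, PDIL2-3, ERO1, calnexin, calreticulin, bZIP50 and IRE1, and BiP4 and BiP5 stayed under 1 FPKM.

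None of the 8 tested genes passed the test in GSK5-edited against WT caryopses, the comparison that asks what the kinase edit goes with in the grain. ERO1 came closest. It stood at 16.37, 17 and 23.28 FPKM in GSK5 and 8.97, 12.49 and 12.89 in WT, so every GSK5 library lay above every WT library. Its difference was 0.67 on the log2(FPKM + 1) scale (SE 0.21, 95% interval 0.19 to 1.16, limma adjusted p = 0.162). BiP1 stood at 59.93, 63.45 and 64.66 FPKM in GSK5 and 26.74, 44.13 and 81.43 in WT. The GSK5 values lay inside the WT range, with a log2 difference of 0.44 and a 95% interval of -0.32 to 1.2 (limma adjusted p = 0.477).

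PDIL1-1 was almost level between these groups, at 276.13, 296.39 and 296.19 FPKM in GSK5 and 278.39, 269.66 and 327.76 in WT. Its log2 difference was -0.01, and the 95% interval of -0.33 to 0.31 bounds what these libraries can show. The glycoprotein chaperones also overlapped. Calnexin, the membrane-bound one, averaged 102.6 ± 10.7 FPKM in GSK5 and 85.2 ± 22.8 in WT, and calreticulin, the soluble one, 124.6 ± 9.62 and 117 ± 61.1 FPKM (SD, n = 3 libraries each). The stress sensor IRE1 stood at 19.95 to 22.37 FPKM in GSK5 and 16.15 to 22.35 in WT. Its target bZIP50 stood at 20.91 to 25.43 FPKM in GSK5 and 12.21 to 21.41 in WT. A gene-level FPKM does not separate spliced from unspliced bZIP50, so splicing by IRE1 was not measured.

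Of all 23385 genes tested by limma, 2.15% were called in GSK5 against WT, and 0 of the 8 ER genes. At an unadjusted p under 0.05 there was 1 of the 8, ERO1, against 18.5% of all genes. ERO1 was also the 1 gene of the 8 without overlap between the groups, where 18.3% of all genes lay higher without overlap, so by these counts the ER genes did not stand above the background. The log2 difference was above 0 for 7 of 8 genes, against 63.1% of all genes, with a median of 0.32 against 0.11 over all genes. Without WT replicate 1 the median of the 8 was 0.04, against 0.06 over all genes, BiP1 differed by 0.06 and ERO1 by 0.52. Without WT replicate 3 it was 0.56, and BiP1 alone was called (log2 difference 0.85, adjusted p = 0.0409) at a background of 11.8% of all genes called and 7.04% called higher.

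**Figure D2:**
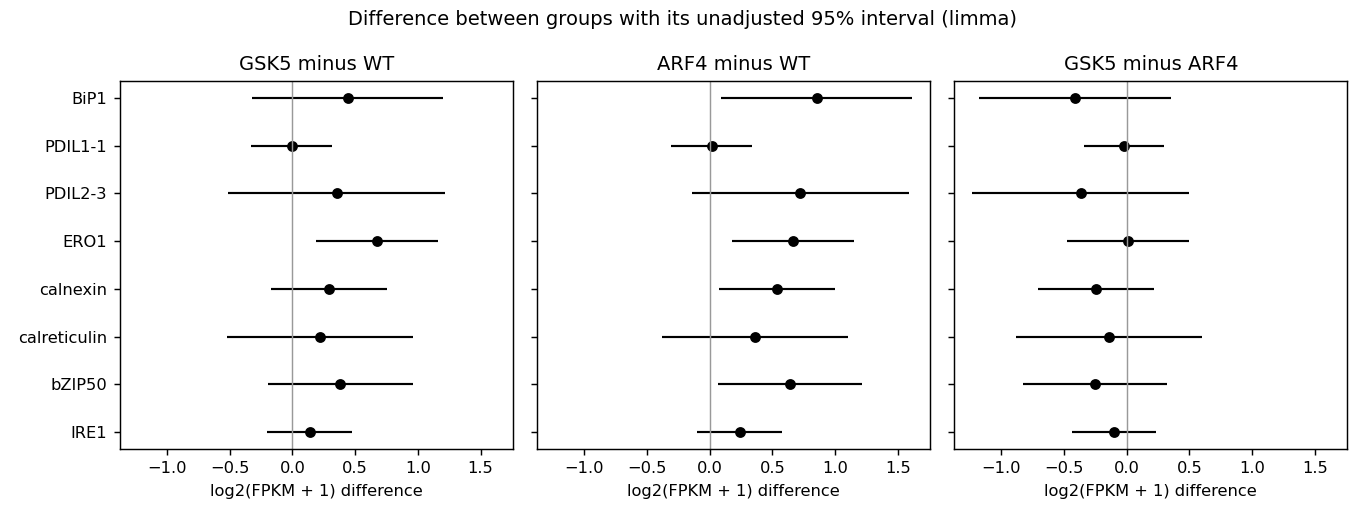
Difference in log2(FPKM + 1) for the 8 tested genes (points) with its unadjusted 95% interval (lines) for GSK5 minus WT, ARF4 minus WT and GSK5 minus ARF4. The interval lay above 0 for ERO1 in both comparisons with WT and for BiP1, calnexin and bZIP50 in ARF4 minus WT, and no gene was called after adjustment over all genes.

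In ARF4-edited against WT caryopses, the comparison that asks what the auxin response factor edit goes with, the 8 log2 differences lay between 0.02 and 0.85 and none was called. ERO1 again separated the groups, at 19.26, 14.53 and 22.69 FPKM in ARF4 and 8.97, 12.49 and 12.89 in WT. Its log2 difference was 0.67 (SE 0.21, 95% interval 0.18 to 1.15, limma adjusted p = 0.113). BiP1 had a log2 difference of 0.85 (SE 0.33, 95% interval 0.09 to 1.62, limma adjusted p = 0.165). It stood at 85.29, 91.55 and 75.23 FPKM in ARF4, all above WT replicates 1 and 2, whereas WT replicate 3 at 81.43 lay among the ARF4 values.

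In calnexin and PDIL2-3, too, WT replicates 1 and 2 lay below every ARF4 library. Calnexin stood at 129.47, 132.55 and 103.74 FPKM in ARF4 and 64.26, 81.82 and 109.52 in WT (log2 difference 0.54, limma adjusted p = 0.153). PDIL2-3 stood at 13.65, 15.31 and 13.34 FPKM in ARF4 and 3.73, 9.17 and 14.88 in WT (log2 difference 0.72, limma adjusted p = 0.265). For both genes WT replicate 3 lay above at least 1 ARF4 library. Calreticulin stood at 135.84, 155.98 and 123.03 FPKM in ARF4 and 65.54, 100.99 and 184.54 in WT, where replicate 3 was the highest of the 9 libraries. PDIL1-1 was level here too, with a log2 difference of 0.02 and a 95% interval of -0.3 to 0.34.

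The sensor IRE1 and its target bZIP50 overlapped between ARF4 and WT. The transcription factor gene bZIP50 stood at 28.91, 20.67 and 35.95 FPKM in ARF4 and 12.21, 20.45 and 21.41 in WT (log2 difference 0.64, SE 0.25, limma adjusted p = 0.167). ARF4 replicate 2 lay inside the WT range and the other 2 ARF4 libraries above it. IRE1 stood at 22.15, 19.91 and 26.2 FPKM in ARF4 and 16.15, 22.35 and 18.99 in WT (log2 difference 0.24, limma adjusted p = 0.332).

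Limma called 3.32% of all genes in ARF4 against WT, and 0 of the 8. At an unadjusted p under 0.05 there were 4 of the 8 (ERO1, calnexin, BiP1 and bZIP50), against 24.9% of all genes. Only ERO1 among the 8 did not overlap, where 11.1% of all genes lay higher without overlap. The log2 difference was above 0 for 8 of 8, against 55.3% of all genes, with a median of 0.59 against 0.05. Both comparisons share the 3 WT libraries, so they are not independent of each other. Without WT replicate 1 the median of the 8 was 0.3, against 0.01 over all genes, BiP1 differed by 0.47 (adjusted p = 0.323) and ERO1 by 0.51 (adjusted p = 0.254). Without WT replicate 3 it was 0.75, and 4 of the 8 were called higher: BiP1 (log2 difference 1.26, adjusted p = 0.0145), calnexin (0.73, 0.0349), calreticulin (0.75, 0.0478) and PDIL2-3 (1.12, 0.0481). In that fit 15.1% of all genes were called, and 7.53% of all genes were called higher. ERO1, which was closest with all libraries, was not among these calls (adjusted p = 0.0717).

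**Figure D3:**
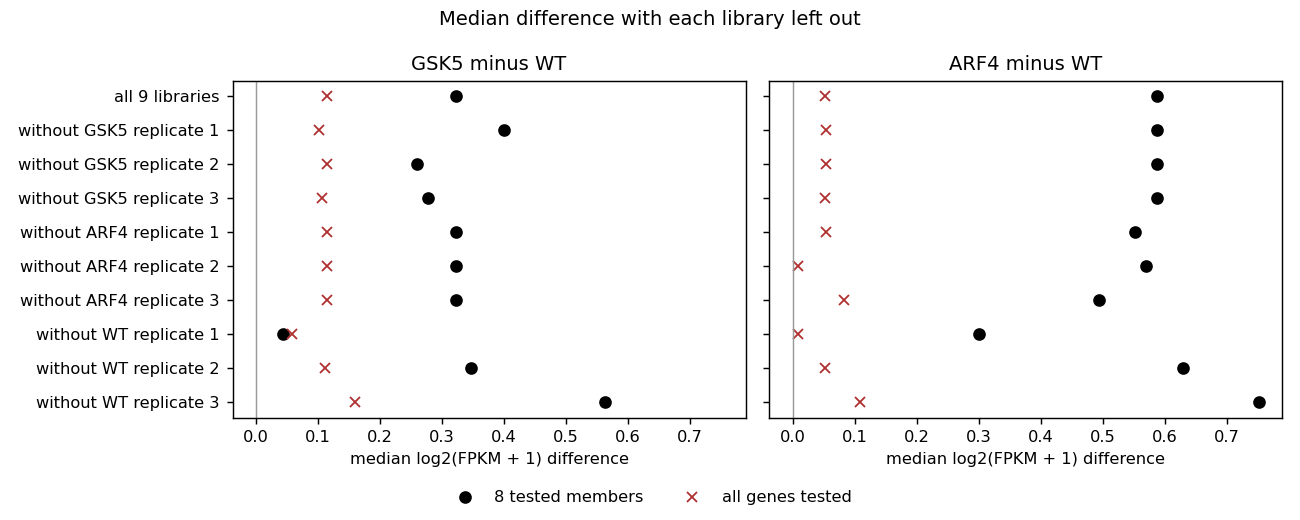
Median log2(FPKM + 1) difference of the 8 tested ER genes (dots) and of all genes tested (crosses), with all 9 libraries and with each library left out. The ER median of GSK5 minus WT was 0.04 without WT replicate 1 and 0.56 without WT replicate 3; that of ARF4 minus WT was 0.3 and 0.75.

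GSK5-edited and ARF4-edited caryopses were also compared with each other, which leaves the variable WT group out of the contrast. BiP1 was lower in each GSK5 library (59.93 to 64.66 FPKM) than in each ARF4 library (75.23 to 91.55), and so was PDIL2-3, at 9.63 to 12.51 FPKM in GSK5 and 13.34 to 15.31 in ARF4. Neither passed limma, with log2 differences of -0.41 (95% interval -1.18 to 0.35, adjusted p = 0.637) and -0.37 (-1.23 to 0.5, adjusted p = 0.72). The shared spread includes the WT libraries. With only GSK5 and ARF4 in the limma fit, 2 of the 8 had an unadjusted p under 0.05. They were BiP1 (unadjusted p = 0.00617, adjusted p = 0.12) and PDIL2-3 (0.0263 and 0.203). The share of all genes at that unadjusted level in this fit is not given, so the 2 have no background beside them. After adjustment this fit called 0.877% of all genes and 0 of the 8. With all 9 libraries limma called 0.483% of all genes and 0 of the 8. In that fit 0 of the 8 had an unadjusted p under 0.05, against 13.8% of all genes. The log2 difference was above 0 for 1 of the 8, against 57% of all genes. For 2 of the 8 the GSK5 libraries all lay lower, against 8.02% of all genes. ERO1 was nearly equal, averaging 18.9 ± 3.82 FPKM in GSK5 and 18.8 ± 4.1 in ARF4 (SD, n = 3 libraries each), with a 95% interval of -0.48 to 0.5 on the log2 scale. The median log2 difference of the 8 was -0.19, against 0.05 over all genes.

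The 8 genes did not vary alike among libraries, and their sets are described as they appeared in the values. BiP1, PDIL2-3, calnexin and calreticulin are folding factors. Between the highest and the lowest WT library BiP1 differed 3.05-fold, PDIL2-3 3.99-fold, calreticulin 2.82-fold and calnexin 1.7-fold. In GSK5 the same ratios were 1.08, 1.3, 1.15 and 1.23, and in ARF4 1.22, 1.15, 1.27 and 1.28. In WT all 4 were lowest in replicate 1 and highest in replicate 3, an order that ERO1 and bZIP50 shared. In ARF4 all 4 were highest in replicate 2.

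ERO1, bZIP50 and IRE1 took another course in ARF4, where all 3 were lowest in replicate 2 and highest in replicate 3. In GSK5 all 3 were highest in replicate 3, and so were BiP1 and calnexin. ARF4 replicate 2 was the library with the lowest mean r with its own group (0.898). Over the 9 libraries, which fall into 3 groups, Pearson r of log2(FPKM + 1) was 0.858 to 0.963 for the 6 pairs among the 4 folding factors and 0.823 to 0.922 for the 3 pairs among ERO1, bZIP50 and IRE1. Between the sets it was 0.33 to 0.75 over 12 pairs. With group means taken out, these ranges were 0.859 to 0.989, 0.852 to 0.92 and 0.1 to 0.608. The sets were formed from these same values, so a higher r within than between them follows from that choice and tests nothing. The libraries also share depth and tissue makeup, so these coefficients are a description. PDIL1-1 followed neither set closely (r from 0.278 to 0.539), and it varied little, by 1.07-fold in GSK5, 1.14-fold in ARF4 and 1.22-fold in WT.

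Cytosolic heat shock loci moved with part of this pattern. The mean log2(FPKM + 1) of 10 such loci was 3.98 to 4.31 in GSK5, 3.38 to 4.35 in ARF4 and 3.2 to 3.37 in WT. In ARF4 it was 4.26, 3.38 and 4.35 in replicates 1, 2 and 3, so replicate 2 was lowest, as for ERO1, bZIP50 and IRE1. Their summed FPKM was 771 to 1103 in GSK5, 873.4 to 2026 in ARF4 and 826.2 to 3595 in WT, and none of the 10 stayed under 1 FPKM in every library. Most of each sum was 1 locus, LOC_Os11g47760, so the sums do not describe the 10 loci together. That locus stood at 616.4 to 971.1 FPKM in GSK5, 777.3 to 1830 in ARF4 and 722.1 to 3501 in WT. It was not called against WT (limma adjusted p = 0.435 for GSK5 and 0.943 for ARF4). Loci entered for the green pericarp, 4 in all, summed to 1541 to 1877 FPKM in GSK5, 1555 to 2508 in ARF4 and 1959 to 3008 in WT, the highest being WT replicate 1. In ARF4 against WT 1 of these 4 had a log2 difference above 0 and 3 below. LOC_Os01g41710 averaged 1026 FPKM in ARF4 and 596 in WT, LOC_Os12g17600 28.9 and 111. Limma called 1 of the 4 lower in GSK5 against WT and 1 lower in ARF4 against WT. Of all 23385 genes tested, 164 were called lower in GSK5 against WT and 472 (2.02%) in ARF4 against WT. Of the 9 heat shock loci tested, limma called 3 higher in GSK5 against WT, where 1.45% of all genes were called higher. In ARF4 against WT it called 0 of the 9, with 4 at an unadjusted p under 0.05, against 24.9% of all genes. Storage protein loci, by the sums given above, were highest in ARF4. Of the 4 tested, 2 were called higher there than in WT, beside 1.3% of all genes called higher. Both passed the filter of 1 FPKM in 3 libraries only through their ARF4 values, so this count tests nothing. These 2 were low: LOC_Os01g55690 averaged 8.07 FPKM in ARF4 and 0.327 in WT, LOC_Os05g41970 1.95 and 0.287. Most of each sum was LOC_Os03g55730, which averaged 28.5 FPKM in ARF4 and 27.7 in WT and was not called. Of the 5 starch loci tested 0 were called in ARF4 against WT (0 at an unadjusted p under 0.05), and 4 had a log2 difference below 0. The part of heat shock state, storage protein level and tissue makeup in the ER values was not tested.

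**Figure D4:**
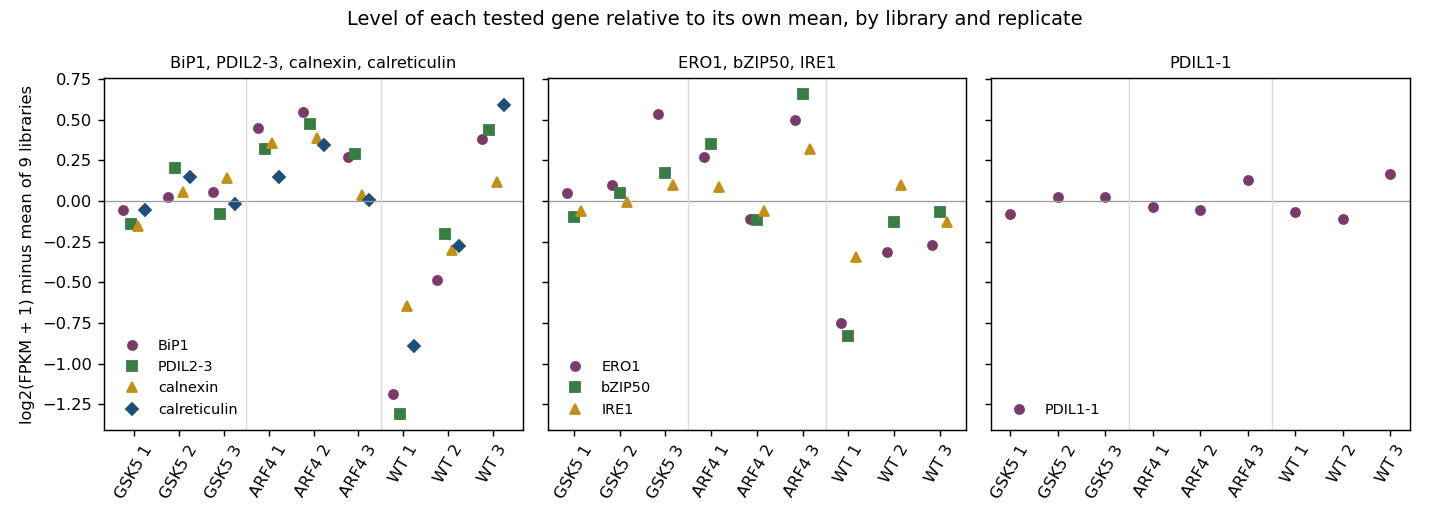
Log2(FPKM + 1) of each tested gene minus its own mean over the 9 libraries, by library. BiP1, PDIL2-3, calnexin and calreticulin ran lowest in WT replicate 1 and highest within ARF4 in replicate 2, where ERO1, bZIP50 and IRE1 were lowest within ARF4; PDIL1-1 varied little.

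A further 27 loci, entered from memory for the same pathway and named here by identifier only, were examined beside the 10. They were sorted into ER HSP70 and HSP90 chaperones, the PDI family, calreticulin-type proteins, bZIP stress factors, degradation and survival factors, and a small heat shock protein. Of these, 25 were tested. In GSK5 against WT 0 were called by limma (6 at an unadjusted p under 0.05, against 18.5% of all genes), with a median log2 difference of 0.26 against 0.11 over all genes. Without WT replicate 1 that median was 0.09, and without WT replicate 3 it was 0.44. In ARF4 against WT 1 was higher, 1 lower and 23 not called (6 at an unadjusted p under 0.05, against 24.9%), with a median of 0.11 against 0.05. In GSK5 against ARF4 0 were called (3 at an unadjusted p under 0.05, against 13.8%), with a median of 0.12 against 0.05. The unadjusted counts of both GSK5 comparisons include LOC_Os04g36750, which was tested only through its GSK5 values. The shares called over all genes were those given above, 2.15%, 3.32% and 0.483%, the second made up of 1.3% higher and 2.02% lower. Without WT replicate 3, limma called 3 of the further loci higher and 1 lower in GSK5 against WT, and 4 higher and 1 lower in ARF4 against WT, out of 25 tested each time and beside 11.8% and 15.1% of all genes called. The median of the further loci in ARF4 against WT was then 0.41, and it was -0.0085 without WT replicate 1.

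The locus that rose in ARF4 against WT was LOC_Os05g09550 of the degradation and survival class, at 23.15, 19.84 and 27.02 FPKM in ARF4 and 13.95, 14.31 and 14.51 in WT. The groups did not overlap, and the WT libraries lay within 1.04-fold of each other. Its log2 difference was 0.66 (SE 0.12, limma adjusted p = 0.0295). The call was lost without WT replicate 1 or 2, ARF4 replicate 1 or any GSK5 library, with adjusted p between 0.0662 and 0.127, and in the fit over only ARF4 and WT (0.158). It also ended with array weights (0.0829), a block for replicate number (0.0755), median-of-ratios scaling (0.0641) and quantile normalization (0.0504).

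The locus that fell was LOC_Os01g67054 of the calreticulin-type class, at 52.3, 64.88 and 57.05 FPKM in ARF4 and 131.42, 116.44 and 101.8 in WT. Here too the groups did not overlap. Its log2 difference was -0.99 (SE 0.15, limma adjusted p = 0.0157). This call was lost without WT replicate 2 (0.0681) or ARF4 replicate 1 (0.083), with array weights (0.121), with a block for replicate number (0.0633) and in the fit over only ARF4 and WT (0.0858). The same locus stood at 77.84, 70.53 and 91.17 FPKM in GSK5, between both groups (log2 difference from WT -0.54, adjusted p = 0.122).

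In the other classes the most abundant loci were not called with all 9 libraries. Those leading the chaperone and PDI classes were called higher in ARF4 against WT without WT replicate 3. The PDI leader was also called higher in GSK5 against WT in 1 of the 18 alternatives. The bZIP leader was called higher in 1 of the 18 in each comparison with WT. The ER HSP70 and HSP90 class was led by LOC_Os06g50300, with 44.28 to 48.09 FPKM in GSK5, 56 to 61.36 in ARF4 and 31.48 to 61.99 in WT, where replicate 1 was lowest and replicate 3 highest, as for BiP1. The PDI family was led by LOC_Os05g06430, with 132.28 to 155.87 FPKM in GSK5, 129.64 to 141.85 in ARF4 and 78.86 to 159.71 in WT. Of the bZIP class LOC_Os07g44950 was the more abundant, at 18.93, 20.98 and 22.74 FPKM in GSK5 and 24.82, 14.58 and 24.48 in ARF4, against 14.15, 15.34 and 13.98 in WT. Within ARF4 its replicate 2 was lowest, as for bZIP50. By the mean of all 9 libraries LOC_Os03g05730 led the degradation and survival class, with 78.27 to 85.29 FPKM in GSK5, 73.25 to 75.2 in ARF4 and 42.17 to 81.72 in WT. Within ARF4 LOC_Os02g03280 had a higher mean, at 83.56, 48.93 and 164.01 FPKM. The small heat shock locus LOC_Os04g36750 stood at 1.64 to 2.1 FPKM in GSK5, 0.04 to 0.79 in ARF4 and 0.21 to 0.92 in WT. It was not called (limma adjusted p = 0.188 for GSK5 against WT and 0.205 against ARF4). Only its GSK5 values reached the 1 FPKM needed for testing, so the lack of overlap with ARF4 and WT followed from the filter.

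**Figure D5:**
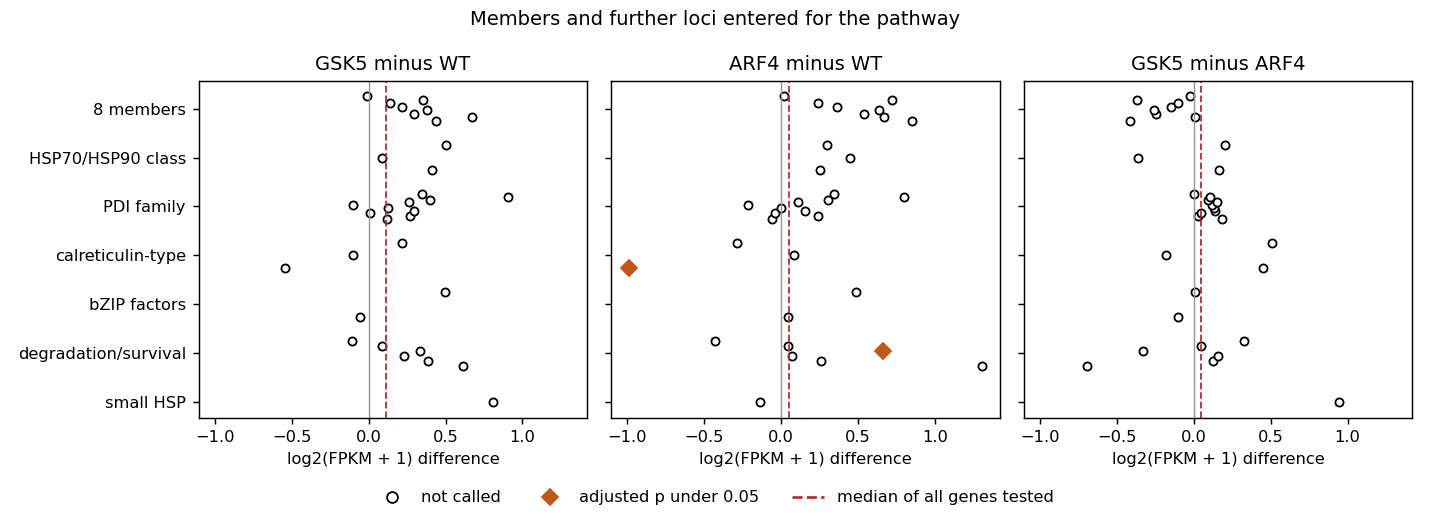
Log2(FPKM + 1) difference of the 8 tested members and of the 25 tested further loci by class for GSK5 minus WT, ARF4 minus WT and GSK5 minus ARF4; filled diamonds passed limma at an adjusted p under 0.05 and the dashed line is the median of all genes. The 2 calls, both in ARF4 minus WT, were LOC_Os01g67054 at -0.99 and LOC_Os05g09550 at 0.66.

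The genes whose levels ran most like BiP1 over the 9 libraries were none of the loci entered here. By Pearson r of log2(FPKM + 1) the first 5 lay between 0.983 and 0.996, led by LOC_Os01g54080 (0.996) and LOC_Os03g50100 (0.99), which the files do not pair with names. Among 23384 other tested genes PDIL2-3 ranked 78 (r = 0.963), LOC_Os06g50300 ranked 80 (0.963), calnexin 121 (0.958) and calreticulin 404 (0.928). The other tested members came much later: bZIP50 at rank 3859 (0.74), ERO1 at 5595 (0.646), IRE1 at 7777 (0.517) and PDIL1-1 at 8719 (0.457). Over the further PDI loci r ran from -0.863 (LOC_Os04g35290) to 0.916 (LOC_Os07g34030), so folding genes did not all run like BiP1. WT replicate 1 was the lowest library for BiP1, so genes low in that library rank high by this measure.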

How the data were processed

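Illumina TruSeq libraries were made from Trizol RNA, per the labels' protocols. The authors deposited one table of FPKM values with 2 decimals for 9 libraries; Bowtie 0.12.2 and the mouse build mm8 are named in the submitters' processing notes, although a mouse build has no rice genes. The rice build, annotation, quantifier and strand setting were not given in the sources used here. Without counts, tests ran on the log scale. Genes with at least 1 FPKM in at least 3 of 9 libraries (23385) were analysed as log2(FPKM + 1) in one limma fit (limma 3.58.1, R 4.3.3, mean-variance trend) over the 3 groups, with Benjamini-Hochberg adjustment over all genes tested and calls at an adjusted p under 0.05. Fold changes of low genes are understated on this scale. Groups came from sample titles.

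The members, lists and rule for named genes (every member, the called and the most abundant further locus of each class, the edited genes and the 5 genes most like BiP1) were chosen with earlier results of these data known. Of 83 loci entered, 83 were in the table and 0 matched the RefSeq gene table (ASM3414082v1). No sequences are shown. Relative depth was solved from the modal ratio of values between 0.1 and 0.5 FPKM over pairs of libraries. Replicate numbers were not used to pair the libraries in the main fit. Summaries were made with pandas 2.3.3 and numpy 2.4.6 under Python 3.11.15, and plots with matplotlib 3.10.9.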

Additional observations from a re-analysis of the deposited data

How the results depend on the processing

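Limits are the 3 libraries per group, the unequal spread of the groups and the unknown depth. The 18 alternatives gave no call for any of the 8 genes in the 3 comparisons, except without WT replicate 3, where 1 was called in GSK5 against WT and 4 in ARF4 against WT. The median of all genes in GSK5 against WT was 0.11 as deposited and -0.01 with quantile normalization; relative to it the median of the 8 was 0.21 and 0.3. Called genes numbered 502 for GSK5 against WT, 776 for ARF4 against WT and 113 between the edited groups. Array weights gave 3184, 155 and 39; a mean of at least 5 FPKM gave 148 and 35 in GSK5 against WT and against ARF4; only the groups compared gave 82 for ARF4 against WT and 205 for GSK5 against ARF4. In the last comparison a pseudocount of 0.1 gave 69 and no filter 220. Leaving out one library gave 107 (without GSK5 replicate 3) to 2719, 130 (without ARF4 replicate 1) to 3496 and 2 (without ARF4 replicate 1) to 479 (without ARF4 replicate 3); 2719 and 3496 were without WT replicate 3. Leaving out one library moved the medians of the 8 between 0.04 and 0.56, 0.3 and 0.75, and -0.23 and -0.13, and those of the further loci between 0.09 and 0.44, -0.0085 (without WT replicate 1) and 0.41 (without WT replicate 3), and 0.09 and 0.16. The causes were not tested.

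Deviations of same-numbered libraries from their group means correlated between -0.349 and 0.0833, so no deviation shared by replicate number was seen. Whether same-numbered libraries were prepared together cannot be told from these values. With the replicate block 239, 219 and 30 genes were called, and none of the 8.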

Other observations

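The ratio of BiP1 to calreticulin within a library separated all 3 groups, although each gene alone overlapped between edited and WT caryopses. It was 0.51, 0.468 and 0.535 in GSK5 replicates 1, 2 and 3, 0.628, 0.587 and 0.611 in ARF4 and 0.408, 0.437 and 0.441 in WT. Within WT it thus moved little while BiP1 itself differed 3.05-fold between libraries. It was noticed after the values were seen, as the single one of 28 ratios between the 8 tested genes with no overlap among the groups, and has no test.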
